A study of Rattus norvegicus with 2 samples.

Results

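Sox10, Sox2, Egr2, Pou3f1, Erbb2, Erbb3, Nrg1 and Lgi4 are 8 of the 32623 genes in the count tables, taken by their symbols as regulators of the Schwann cell lineage and as parts of the ErbB signal between axons and Schwann cells. All 8 were found in both tables. Their Ensembl identifiers in the tables are ENSRNOG00000011305 for Sox10, ENSRNOG00000012199 for Sox2, ENSRNOG00000000640 for Egr2, ENSRNOG00000047686 for Pou3f1, ENSRNOG00000006450 for Erbb2, ENSRNOG00000004964 for Erbb3, ENSRNOG00000010392 for Nrg1 and ENSRNOG00000021087 for Lgi4.

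The cochlear ducts were those of Sprague-Dawley rats at postnatal day P1 and P7, with 1 droplet library per age, each pooled from 40 rats according to the Methods, and with no genotype or treatment named. Values are unique molecular identifiers (UMIs), 1 for each captured transcript, and a level is given as CPM, a gene's UMIs scaled to a total of 1000000 UMIs over the cells described. With 1 library per age, age and library cannot be told apart, and nothing was tested. Each level carries an exact Poisson interval and each share of cells a Clopper-Pearson interval, both at 95%, which take in counting error only. The P1 library held 14068 barcodes and the P7 library 14501, of which 12779 and 12581 were kept as cells, with medians of 6565 and 6878 UMIs, and 60 barcodes occurred in both.

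Schwann cells are the glia of peripheral nerves, and in the cochlea they sheath the processes of spiral ganglion neurons. They descend from the neural crest under Sox10, pass through an immature dividing stage, and then withdraw from division to wrap axons with myelin. The step to myelin is driven by Pou3f1 and Egr2, is held back by Sox2, and depends on axonal neuregulin, which binds Erbb3 paired with Erbb2 on the Schwann cell.

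Cells were put into classes by marker lists that hold none of the 8 genes, and are called by the class with the ending -like. A cell was glia-like when at least 4 of 10 glial markers, such as Cdh19, Ttyh1 and Gfra3, were detected and no other list had a larger share of its markers. This gave 1860 glia-like cells at P1 (14.6% of cells) and 3417 at P7 (27.2%). Glia-like cells with at least 5 of 13 division markers were called dividing (238 at P1 and 494 at P7). Of the others, cells with at least 5 of 13 myelin markers, such as Mbp, Prx and Mag, were called myelinating (197 and 979). The rest, with fewer than 5 myelin markers, were called immature (1425 and 1944). Satellite and non-myelinating glia had no gate of their own, so this group can hold them. Fabp7, Apoe, Glul and Kcnj10 were listed as markers of satellite glia, and Fabp7 is also one of the 10 glial gate markers. At P1 Fabp7 was at 83.4 in immature, 5.42 in dividing and 6.36 in myelinating cells. At P7 Fabp7 was at 11.8 in immature cells, below its level in dividing cells. Apoe was higher in immature than in myelinating cells, at 3949 against 2527 at P1 and 7108 against 5474 at P7. Glul was lower in immature than in myelinating cells, at 139 against 152 at P1 and 123 against 166 at P7. Kcnj10 had 7 UMIs in immature and 1 in myelinating cells at P1, and 14 and 16 at P7. The part of such glia in the immature group was not tested. Pmp22, a protein of peripheral myelin that was not used in the gate, had a level of 3192 in all glia-like cells at P1 and 6201 at P7. The labels name the cells as greater epithelial ridge cells, but epithelium-like cells made up 1.40% of cells at P1 and 0.938% at P7, against 71.7% and 62.7% for mesenchyme-like cells.

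The gates have soft edges. At P1 322 and at P7 548 glia-like cells were at the minimum of 4 markers, and 417 and 1183 also reached the minimum of another list. The myelin gate on which the states rest had 392 cells at P1 and 949 at P7 with 4 or 5 markers, on either side of its limit. At P1 158 cells of the myelinating group held 5 or 6 markers, and the group still held genes of immature glia. Gap43 was at 218 there against 462 in immature cells. Ngfr was at 31.8 against 27.6, Ncam1 at 161 against 149 and Nes at 82.7 against 57.5. Scn7a was at 145 against 157, L1cam at 27.2 against 29.7 and Cdh2 at 69.4 against 80.0. Pmp22 was at 6005 against 2830, at median depths of 7894 and 4364 UMIs. Clusters of cells, used as an alternative, gave a single myelinating cluster with 15 cells of P1 and 192 of P7. Immature glia-like cells of the 2 ages fell into separate clusters, the largest with 1707 cells of P1 and 9 of P7 and with 7 of P1 and 1711 of P7, so the states of the 2 libraries hold cells that clustered apart. The 56 neuron-like cells of P7 held a median of 5 glial markers, the same median as the glia-like cells there, so their levels of the 8 genes are not those of neurons alone. They stood at 211 CPM for Sox2, 186 for Erbb3, 143 for Pou3f1, 130.4 for Lgi4, 84.9 for Egr2 and 29.0 for Erbb2. The 347 neuron-like cells of P1 also held a median of 5 glial markers, against 6 in the glia-like cells there. Their median depth was 20081 UMIs, and their levels of glial genes carry the same limit. Cells in no class (561 and 455) were shallower and also held glial genes.

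Of the 8 genes, 6 were higher in glia-like cells in both libraries, Erbb2 was spread more evenly, and Nrg1 was mainly in neuron-like cells at P1. Comparing glia-like cells with all other cells, and counting a gene as higher at a ratio of at least 2-fold after adding 5 CPM to both levels, 6 of the 8 genes were higher at P1, where 4.43% of 12748 genes were. At P7, 6 of the 7 genes that reached a minimum of 50 UMIs were higher, against 5.12% of 12721 genes. None of the genes compared, 8 at P1 and 7 at P7, was 2-fold lower in glia-like cells with 5 CPM added (background 7.22% and 8.69%). Nrg1 at P1 had a ratio of 0.342 (0.210 to 0.530) with nothing added, and it was past 2-fold lower in 3 of 14 alternatives. The other cells there include neuron-like cells, at 3438% of the glial Nrg1 level, and epithelium-like cells, at 211%. Mesenchyme-, mural- and endothelial-like cells were below the glial level, at 29.2%, 33.5% and 60.4% of it, and macrophage-like cells held no Nrg1 UMI. The median log2 ratio of all genes was -0.12 at P1 and -0.10 at P7.

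**Figure D1:**
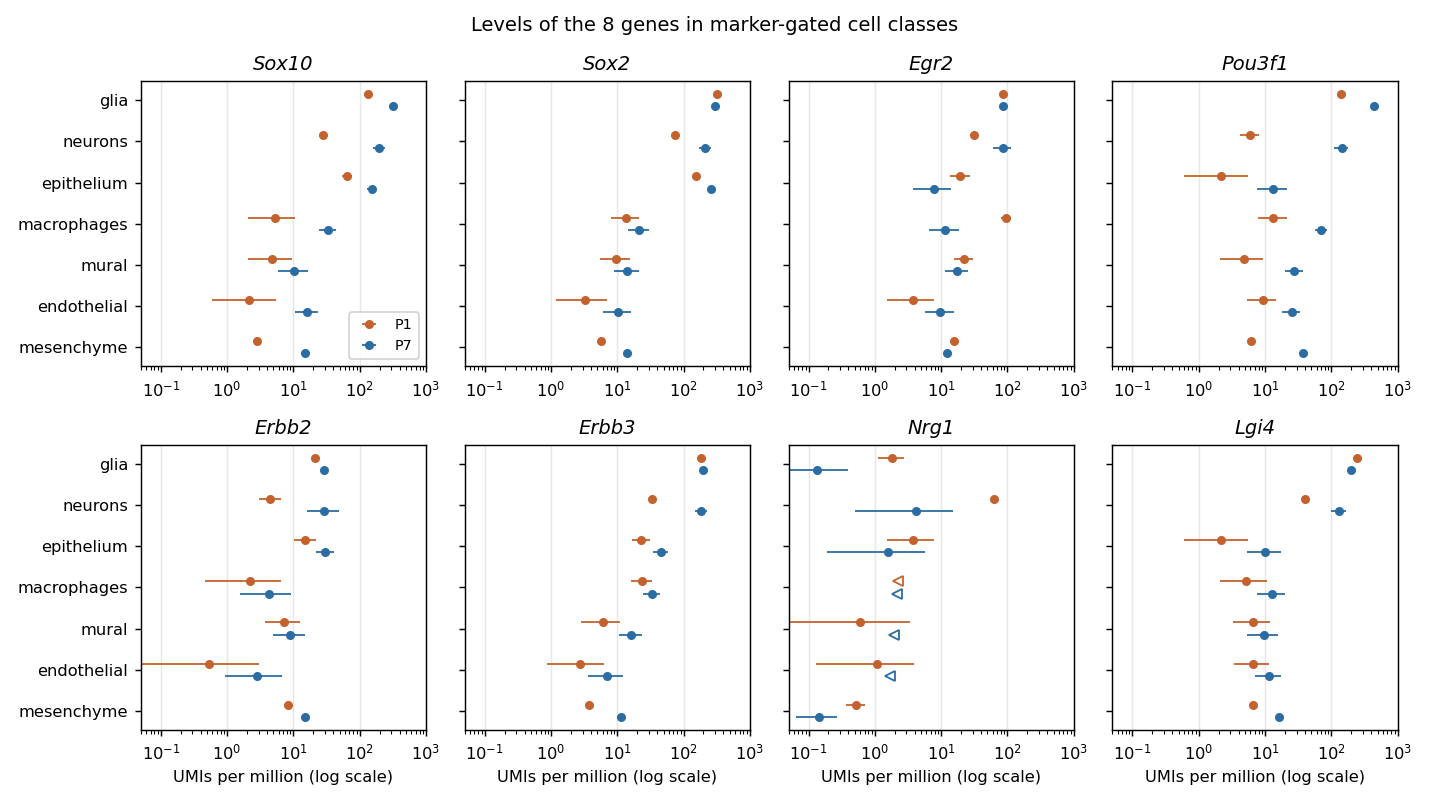
CPM on a log axis for each gene in 7 marker-gated cell classes at P1 (orange) and P7 (blue), with exact 95% Poisson intervals; open triangles mark classes with no UMI, drawn at the level that 3 UMIs would give. Glia-like cells are at or near the top for every gene but Nrg1, whose highest level is 61.7 in neuron-like cells at P1.

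Sox10, the transcription factor that specifies neural crest glia and is kept through the Schwann lineage, was at 133 CPM in glia-like cells at P1 (1550 UMIs, interval 126 to 139) and 322 at P7 (7174 UMIs, 314 to 329). The P7 level was 2.43-fold higher (2.30 to 2.57). The same direction was seen in each state, at 2.61-fold in immature cells, 2.65-fold in dividing cells and 2.07-fold in myelinating cells. After every cell was thinned to 2000 UMIs, so that depth was equal, 24.7% of glia-like cells at P1 held a Sox10 UMI and 48.1% at P7. The intervals of these shares, 22.7 to 26.7% and 46.4 to 49.8%, did not overlap. In thinned mesenchyme-like cells, which should lack Sox10, the shares were 0.484% and 2.11%, and the median depths before thinning were 6790 and 7437 UMIs there and 5001 and 5261 in glia-like cells.

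Outside the glia, epithelium-like cells held Sox10 at 65.1 at P1 (54.0 to 77.8) and 152 at P7 (131 to 175). Sox10 is also known in the otic epithelium, and this was 49.1% and 47.1% of the glial level. At P1 neuron-like cells were next at 28.3, and the levels of 2.17 to 5.20 in macrophage-, mural-, mesenchyme- and endothelial-like cells had overlapping intervals. At P7 neuron-like cells were at 197, with an interval that overlapped the epithelium-like one, macrophage-like cells followed at 33.5, and the endothelial-, mesenchyme- and mural-like cells, at 10.3 to 16.1, did not differ beyond their intervals. The 5 melanocyte-like cells of P7 held 18 Sox10 UMIs, and all of them had at least 1.

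Sox2, which marks immature Schwann cells and also the prosensory and supporting cells of the cochlea, was at 321 in glia-like cells at P1 (3754 UMIs, 311 to 331) and 302 at P7 (6738 UMIs, 295 to 309). The ratio was 0.941, with an interval of 0.904 to 0.979, so Sox2 was close to level while Sox10 was more than 2-fold higher. Within states the ratio of P7 to P1 was 1.21 in dividing, 0.940 in immature and 0.807 in myelinating cells. The myelinating cells held a median of 5 myelin markers at P1 and 6 at P7. With 5 to 6 markers Sox2 was at 325 (295 to 357) and 308 (291 to 326) at the 2 ages. With 7 to 8 it was at 381 (310 to 465) and 264 (241 to 288). Epithelium-like cells held Sox2 at 155 at P1 (138 to 174) and 259 at P7 (232 to 288), which was 48.4% and 85.7% of the glial level. A Sox2 UMI was found in 30.7% of 179 epithelium-like cells at P1 and in 48.3% of 118 at P7, with median depths of 8809 and 10196.5 UMIs, against 2.51% and 6.12% of mesenchyme-like cells. The 21 hair cell-like cells of P1 held 25 Sox2 UMIs, a level of 76.2 (49.3 to 112). In macrophage-, mural-, mesenchyme- and endothelial-like cells Sox2 was at 3.26 to 13.4 at P1 and 10.3 to 21.4 at P7.

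Pou3f1, the POU factor also called Oct6 or SCIP that promotes the entry into myelination, was at 143 in glia-like cells at P1 (1667 UMIs, 136 to 150) and 443 at P7 (9889 UMIs, 435 to 452). This ratio of 3.11 (2.95 to 3.28) was the largest of the 8 genes. It was 3.68-fold in immature and 2.53-fold in dividing cells, and 1.87-fold in myelinating cells, which is under the 2-fold limit. Pou3f1 was unevenly distributed among cells. In thinned P7 glia-like cells 33.3% held a UMI, and these had a mean of 2.72 UMIs with 38.6% holding 3 or more. For Sox10, held by 48.1% of the same cells, the mean was 1.46 and the share with 3 or more was 9.31%. At P1 the Pou3f1 cells, 16.6% of the thinned glia-like cells, had a mean of 1.79, and 17.0% of them held 3 or more. Thinned mesenchyme-like cells held a Pou3f1 UMI in 0.902% at P1 and 4.63% at P7.

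Outside the glia, Pou3f1 was low at P1, from 2.17 in epithelium-like to 13.4 in macrophage-like cells, where its 18 UMIs came from 4 cells. At P7 it was at 70.6 in macrophage-like and 37.2 in mesenchyme-like cells and at 13.2 in epithelium-like cells. The mesenchyme-like level was 4.24% of the glial level at P1 and 8.40% at P7 for Pou3f1, 2.67% and 8.19% for Lgi4, 2.12% and 4.63% for Sox10, 1.75% and 4.65% for Sox2 and 2.07% and 5.78% for Erbb3. Each of these 5 genes was thus at a larger share at P7, and the part of free RNA in those levels was not tested. Egr2 at 18.7% and 14.0%, and Erbb2 at 39.9% and 52.0%, were above those shares at both ages.

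Egr2, also called Krox20, is the zinc finger factor that switches on myelin genes in Schwann cells. It was at 84.4 in glia-like cells at P1 (987 UMIs, 79.2 to 89.8) and 86.3 at P7 (1924 UMIs, 82.4 to 90.2), with a ratio of 1.02 (0.946 to 1.10). The states, however, differed in opposite directions. Immature cells were at 87.6 at P1 and 63.8 at P7, with a ratio of 0.728 (0.651 to 0.814), while myelinating cells were at 96.6 and 135, a ratio of 1.40 (1.19 to 1.66). Relative to the median log2 ratio of all genes, Egr2 was at -0.56 in immature and 0.23 in myelinating cells, with 5 CPM added. Among myelinating cells with 5 to 6, 7 to 8 or at least 9 myelin markers, the Egr2 intervals of the 2 ages overlapped in each group. Egr2 is also an immediate early gene, and its relative Egr1 was at 762 in glia-like cells at P1 and 113 at P7, with mesenchyme-like cells at 586 and 121. Jun, which responds to the same stimuli and to tissue dissociation, was at 896 and 364 in glia-like cells. Their part in the Egr2 levels was not tested.

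Of the 4 transcription factors, Egr2 had the lowest ratio of glia-like to other cells, 4.54 at P1 and 6.62 at P7. At P1 macrophage-like cells held 129 Egr2 UMIs, a level of 95.8 (80.0 to 114) that overlapped the glial interval, and at P7 they held 16, a level of 11.4 (6.52 to 18.5). Egr1 in macrophage-like cells was at 428 and 60.6. Neuron-, mural- and epithelium-like cells were at 31.0, 22.3 and 19.5 at P1, with overlapping intervals, and mesenchyme-like cells were at 15.8. At P7 the classes other than glia- and neuron-like cells lay between 7.78 and 17.4, and the highest and the lowest of these intervals overlapped.

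The promoter window of Egr2 is shown because Egr2 and Pou3f1 were the 2 genes that passed 2-fold in myelinating cells, and that of Sox2 because it was lower in the cells richest in myelin markers. Pou3f1 belongs to the POU family that binds the octamer ATGCAAAT. Promoter windows were matched for 3 of the 8 genes (Egr2, Sox2 and Erbb2) in the RefSeq table of the GRCr8 rat assembly, which is not the build of the count tables. The Egr2 window is the 250 bases before a RefSeq start, on chr20:21054442-21054691, minus strand, and the Sox2 window is on chr2:119464881-119465130, plus strand. Capitals mark the octamer and a CArG box, the site type of serum response factor, on either strand.
Egr2: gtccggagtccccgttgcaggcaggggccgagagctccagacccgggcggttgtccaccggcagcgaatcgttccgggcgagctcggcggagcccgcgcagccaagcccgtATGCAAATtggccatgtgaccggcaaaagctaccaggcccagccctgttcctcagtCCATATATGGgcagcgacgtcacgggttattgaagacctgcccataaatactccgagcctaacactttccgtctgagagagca
Sox2: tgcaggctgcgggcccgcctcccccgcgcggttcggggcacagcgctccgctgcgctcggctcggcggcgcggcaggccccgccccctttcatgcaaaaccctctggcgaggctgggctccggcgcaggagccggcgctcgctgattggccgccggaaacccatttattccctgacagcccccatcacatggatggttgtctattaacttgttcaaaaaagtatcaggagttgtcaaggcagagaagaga
The octamer of Egr2 begins 139 bases before the start and the CArG box 83 bases before it. Among 33469 windows of the same length, 1.56% held the octamer and 1.5% a CArG box. Neither set of letters, nor the SOX motif ACAAAG that 16.3% of windows held, is in the Sox2 window. The match describes letters and does not show binding.

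**Figure D2:**
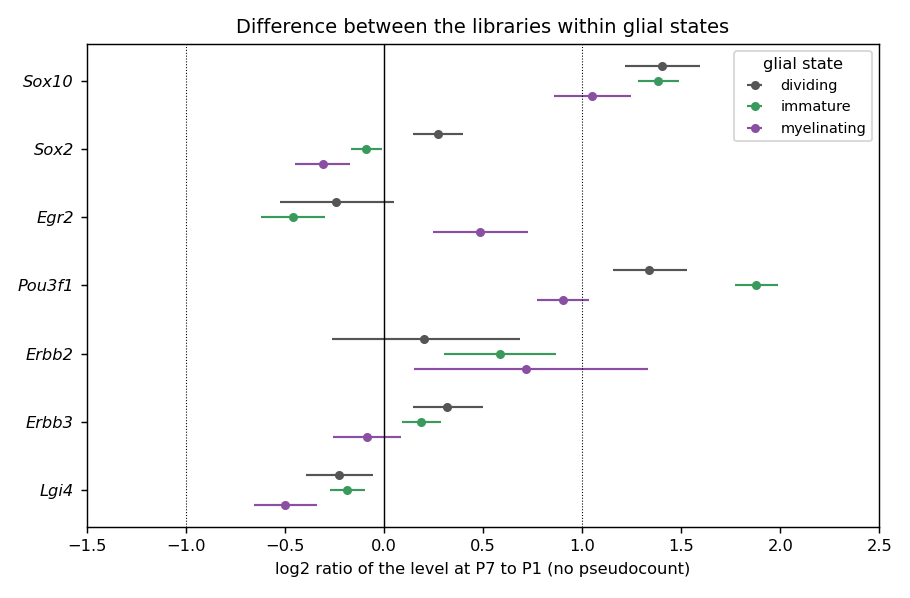
Log2 ratio of the P7 to the P1 level, with no value added, for 7 genes within dividing, immature and myelinating glia-like cells, with 95% intervals for counting error and dotted lines at 2-fold. Sox10 and Pou3f1 lie to the right in every state, and Egr2 lies below 0 in immature and above 0 in myelinating cells.

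Erbb3 is the receptor that binds neuregulin but has an impaired kinase, and it signals through its partner Erbb2. Erbb3 was at 183 in glia-like cells at P1 (2134 UMIs, 175 to 190) and 199.6 at P7 (4453 UMIs, 194 to 206), with a ratio of 1.09 (1.04 to 1.15). It was 22.6-fold above all other cells at P1 and 12.7-fold at P7. Epithelium-like cells were at 22.8 and 45.9, and macrophage-like cells at 23.8 and 33.5, with overlapping intervals of these classes at each age. The macrophage-like level was 13.01% and 16.8% of the glial level.

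Erbb2, the partner with an active kinase, was at 21.0 in glia-like cells at P1 (245 UMIs, 18.4 to 23.8) and 29.1 at P7 (649 UMIs, 26.9 to 31.4), with a ratio of 1.39 (1.197 to 1.62). Unlike Erbb3 it was shared with other cells. Mesenchyme-like cells held it at 8.36 and 15.1 and epithelium-like cells at 15.2 and 30.3, with the epithelial and glial intervals overlapping at both ages. The raw ratio of glia-like to other cells was 2.60 at P1 and 1.93 at P7, and with 5 CPM added it was under 2-fold at both. The P1 value lay at the limit, with a log2 ratio of 0.99, and it was past 2-fold in 10 of 14 alternatives, against 0 of 14 at P7. The other receptors of the family were scarce in glia-like cells, with 9 UMIs of Egfr at P1 and 18 at P7, and 18 and 13 of Erbb4.

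Nrg1, the neuregulin gene that gives the main axonal ligand, had 474 UMIs in all kept cells at P1 and 17 at P7. Of the 474, 401 were in 347 neuron-like cells, at a level of 61.7 (55.9 to 68.1), and 59.1% of these cells held a UMI, at a median depth of 20081 UMIs, against 0.404% of mesenchyme-like cells. Every other class of at least 50 cells was at 3.80 or below at P1. At P7 the 56 neuron-like cells held 2 Nrg1 UMIs, a level of 4.14 (0.502 to 15.0). In glia-like cells there were 21 UMIs at P1, a level of 1.80 (1.11 to 2.75), and 3 at P7, 0.134 (0.0277 to 0.393), with fewer than 50 in either library, so no call was made. The P7 library thus gave little view of the neuronal source. It held 56 neuron-like cells against 347, and their level was also lower, with intervals that did not overlap. These cells also held glial markers, and the parts of cell number and of level in the lower total were not tested.

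Lgi4, a secreted protein of Schwann cells that acts through Adam22 on the sorting of axons and on myelination, was at 248 in glia-like cells at P1 (2901 UMIs, 239 to 257) and 198 at P7 (4413 UMIs, 192 to 204). Its ratio of 0.797 (0.761 to 0.836) was the lowest of the 7 genes compared, and short of 2-fold. Lgi4 was mainly glial, at 21.6-fold above other cells at P1 and 10.8-fold at P7. Neuron-like cells, which also held glial markers, were at 16.3% and 65.9% of the glial level. In epithelium-like cells, where Sox10 and Sox2 were at 47.1% to 85.7% of the glial level, Lgi4 was at 0.875% of the glial level at P1 and 5.11% at P7. The 8 melanocyte-like cells of P1 held 7 Lgi4 UMIs among 47144, and the 5 of P7 held 13 among 68206. These few cells were thus closer to the glial level than to the epithelial one. They held medians of 1 glial marker at P1 and 3 at P7, and the part of glial RNA in their counts was not tested. Adam22 itself was at the edge of detection in glia-like cells, with 2 UMIs at P1 and 6 at P7. In neuron-like cells at P1 Adam22 had 81 UMIs, a level of 12.5 (9.90 to 15.5).

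In all, 2 of the 7 genes that could be compared, Sox10 and Pou3f1, were at least 2-fold higher in glia-like cells at P7 than at P1, where 4.23% of 10194 genes were, and none was 2-fold lower, where 3.66% were. The median log2 ratio of the 7 genes was 0.13, beside 0.10 over all genes. Immature cells gave Sox10 and Pou3f1 again, against a background of 5.11% higher and 3.9% lower, and so did dividing cells, against 5.33% and 3.33%. Myelinating cells gave Sox10 alone, against 7.9% and 5.04%. The median log2 ratio of all genes was 0.23 in myelinating cells, and relative to it Sox10 was at 0.79, which is under 2-fold. In all glia-like cells both genes were past 2-fold in each of 13 alternatives, with log2 ratios of 1.07 to 1.30 for Sox10 and 1.36 to 1.65 for Pou3f1. In glia-like cells the 18 mesenchyme markers summed to 3674 CPM at P1 and 3776 at P7, all 18 detected at both ages, while the 11 neuron markers summed to 252 and 95.9 and the 17 epithelium markers to 91.2 and 189. Their part in the ratios between ages was not tested.

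Between dividing and immature cells, none of the 7 genes with enough UMIs passed 2-fold in either direction at P1 (background 3.99% higher and 0.447% lower) or at P7 (4.4% and 0.714%). Among these 7 the largest difference at both ages was that of Lgi4, at 184 in dividing and 267 in immature cells at P1 (ratio 0.689, 0.620 to 0.764) and 157 and 235 at P7 (0.669, 0.617 to 0.725). Pou3f1 was level at P1, at 117 and 112, and lower in dividing cells at P7, at 297 against 411 (ratio 0.721, 0.679 to 0.765). Sox2 was at 293 in dividing and 331 in immature cells at P1 and at 353 and 311 at P7, so its order changed between the libraries. Sox10, Egr2 and Erbb3 had ratios from 0.747 to 0.880 over both ages. Dividing cells were deeper, with median UMIs of 9193.5 and 9808 against 4364 and 4179 in immature cells.

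Between myelinating and immature cells 1 gene passed 2-fold at each age, and it was a different one. At P1 this was Pou3f1, at 312 in myelinating cells (287 to 340) and 112 in immature cells (104 to 120), a ratio of 2.79 (2.502 to 3.12), where 0.454% of genes were higher and 0.407% lower. At P7 it was Egr2, at 135 (127 to 144) against 63.8 (58.8 to 69.1), a ratio of 2.12 (1.91 to 2.34), where 0.869% of genes were higher and 0.301% lower. Egr2 at P1 had a ratio of 1.10 (0.924 to 1.31), and Pou3f1 at P7 had 1.42 (1.36 to 1.48). Over 14 alternatives both were higher in all, at log2 ratios of 0.06 to 1.29 for Egr2 at P1 and 0.49 to 0.77 for Pou3f1 at P7. Pou3f1 at P7 was already at 411 in immature cells, above the 312 of myelinating cells at P1. The difference between the ages was not tested. The call for Egr2 sits near the limit, with log2 ratios of 0.86 to 1.31 over 14 alternatives, and it was under 2-fold with 1 marker fewer, with each cell weighing the same and with clusters in place of the gate, although higher in all 14. Pou3f1 at P1 was past 2-fold in all 14, though after thinning its higher group held too few UMIs for a call.

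The number of myelin markers detected gives a finer order among glia-like cells that were not dividing. At P7 Egr2 was at 46.3 in the 68 cells with no myelin marker, and at 56.7, 67.7, 113, 155 and 166 in cells with 1 to 2, 3 to 4, 5 to 6, 7 to 8 and at least 9 markers. Pou3f1 over the same groups was at 182, 309, 467, 511, 643 and 688. Both means were thus higher at every step, but the intervals of the last pair of groups overlapped for both genes, and those of the first pairs did for Egr2. Sox10 was highest with 1 to 2 markers, at 369, and was at 239 with at least 9.

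Sox2, Lgi4, Erbb3 and Erbb2 were lowest, among cells with any myelin marker, in the last group. At P7 Sox2 was between 264 and 328 from 1 to 2 up to 7 to 8 markers and at 122 (106 to 140) in the 169 cells with at least 9. Lgi4 was at 256, 231, 222 and 178 over those groups and at 81.4 (68.4 to 96.2) with at least 9. Erbb3 was at 130 (114 to 149) in the last group, after 196 to 218 before it, and Erbb2 at 11.8 (7.20 to 18.2), after 29.4 to 33.3. In the 68 cells with no marker Sox2 was at 211, Lgi4 at 147.5 and Erbb3 at 150.4. The cells with at least 9 markers stood apart in myelin too, with Pmp22 at 29860 CPM against 8474 in the group before.

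At P1 most of the order was that of Pou3f1. It was at 36.3, 77.0, 146, 211 and 475 in cells with 0, 1 to 2, 3 to 4, 5 to 6 and 7 to 8 markers, and its 138 UMIs in the 15 cells with at least 9 markers gave 954 (801 to 1127). All 15 of those cells held a Pou3f1 UMI. Egr2 at P1 was low with 0 markers, at 16.5 (7.91 to 30.3), and then between 88.1 and 128 with overlapping intervals. In the 15 cells Sox2 was at 131 (79.1 to 205) and Lgi4 at 76.0 (38.0 to 136), against 381 and 206 in the 24 cells of the group before. With 15 cells, this last group rests on 19 and 11 UMIs of these genes.

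**Figure D3:**
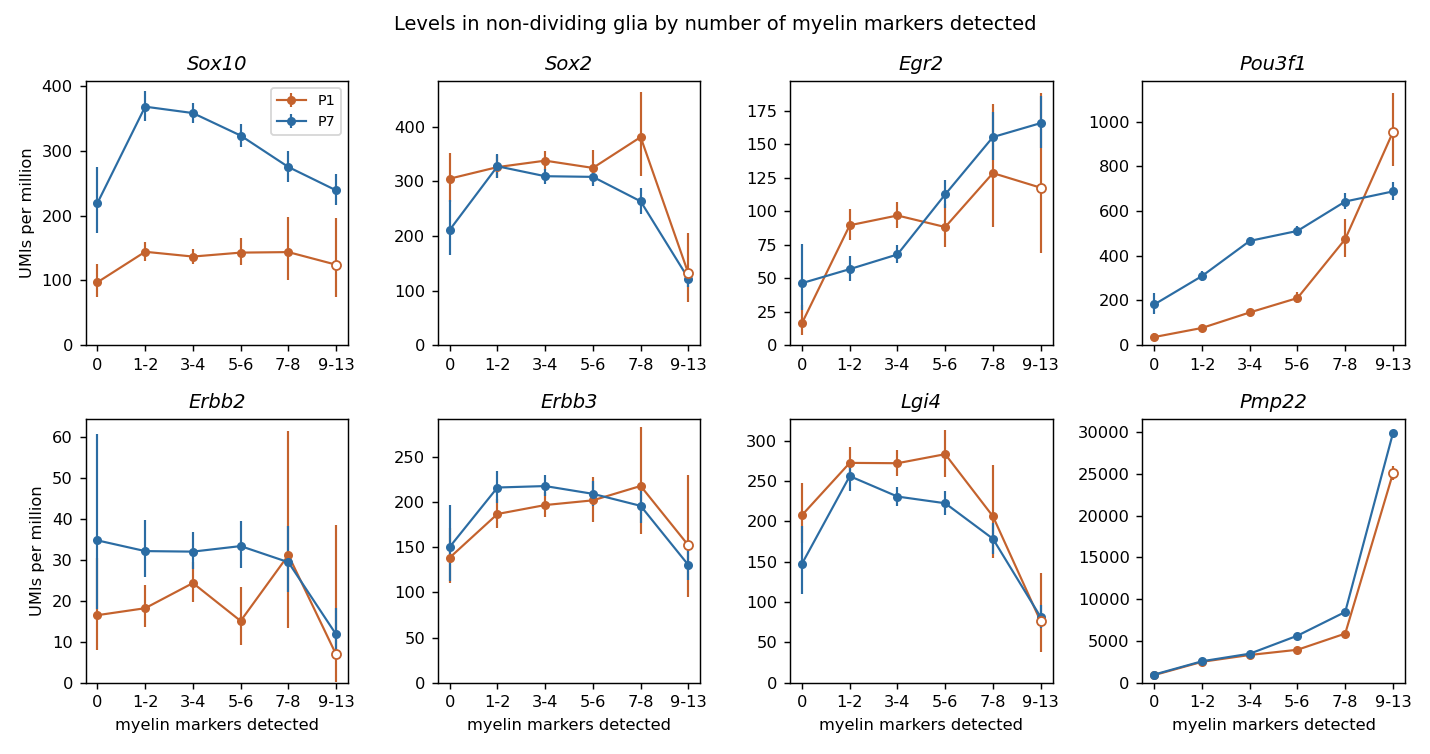
CPM of 7 genes and of Pmp22 in glia-like cells that were not dividing, grouped by how many of 13 myelin markers were detected, at P1 (orange) and P7 (blue), with exact 95% Poisson intervals and an open symbol for the group of 15 cells. Pou3f1 climbs from 182 to 688 at P7, while Sox2 drops to 122 and Lgi4 to 81.4 in the last group.

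Taking the 169 cells with at least 9 markers at P7 against the immature cells, 1 of 7 genes was at least 2-fold higher and 3 were lower, where 2.55% and 9.4% of 7799 genes were. Egr2 was 2.60-fold higher (2.25 to 2.998), and the lower genes were Sox2 at a ratio of 0.392 (0.339 to 0.452), Erbb2 at 0.367 (0.221 to 0.578) and Lgi4 at 0.347 (0.290 to 0.412). Myelin genes took 10.99% of the UMIs of these cells against 0.884% in immature cells, and the median log2 ratio of all genes was -0.33. Relative to that median the log2 ratios were 1.64 for Egr2, 1.07 for Pou3f1, -0.98 for Sox2, -0.81 for Erbb2, -1.14 for Lgi4, -0.37 for Erbb3 and -0.23 for Sox10. The 18 mesenchyme markers summed to 4996 CPM in immature cells, 2914 in myelinating cells and 1849 in the cells with at least 9 myelin markers, and their part in these ratios was not tested. Without glia-like cells that held 8 or more mesenchyme markers, the number of genes past 2-fold in myelinating cells was 1 at each age, as with them. This limit of 9 was chosen after the distribution of markers had been seen.

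Deeper cells show more markers, and median UMIs were 4364.5 with 0 markers and 9511 with at least 9 at P7. When cells were thinned to 2000 UMIs and gated again, Egr2 at P7 was at 33.6, 46.2, 72.0 and 179 with 0, 1, 2 and at least 5 markers. Pou3f1 in these groups was at 332, 301, 424 and 676. In the same thinned groups Lgi4 was at 214 with 0 markers, 268 with 1 and 158 with at least 5, and Sox2 at 290, 330 and 248. At equal depth the P7 group richest in myelin markers was thus again highest for Egr2 and Pou3f1. Its Sox2 and Lgi4 levels were the lowest, but their intervals overlapped those of the group with 0 markers. At P1 the 16 thinned cells with at least 5 markers held Sox2 at 437.5 (239 to 734), an interval that overlapped those of all other groups. The lower Sox2 level of the P1 cells with at least 9 markers was thus not seen there. Egr2 in these 16 cells was at 219 (88.0 to 451), from 7 UMIs, against 51.2 to 110 in the P1 groups with fewer markers.

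Being found in the same cell was a separate matter from being higher in the same group. In thinned cells that were not dividing at P7, Egr2 was found in 16.0% of 970 cells with Pou3f1 (13.7 to 18.4) and in 14.6% of 1885 cells without it (13.02 to 16.3), and at P1 in 12.0% and 14.6%, with overlapping intervals. Sox2 at P7 was found in 35.9% of the cells with Pou3f1 (32.9 to 39.0) and in 44.7% of those without (42.5 to 47.0), whereas at P1 the shares were 46.8% and 47.3%. Egr2 was found in 13.9% of P7 cells with Sox2 and 15.9% of those without, again with overlapping intervals. The shares cover counting error within 1 library.

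The other genes of the pathway were taken from lists of 91 genes, of which 89 were read, the 8 included. They covered ErbB ligands, receptors, neuregulin proteases, restraint and relay of the signal, Lgi receptors, Sox genes and regulators of myelination or of the immature state. Also in the lists were Ngfr, Ncam1, Gap43, Scn7a, Cdh2, L1cam and Nes, as genes of immature glia, and the myelin gene Pmp22. In glia-like cells 72 could be compared between the ages, and 6 were at least 2-fold higher at P7 and 7 lower, with a median log2 ratio of -0.17, where 4.23% and 3.66% of all genes were and their median was 0.10. Beside Sox10 and Pou3f1 the higher genes were Sox8 at 1.197 and 14.8, the ErbB ligand Hbegf at 25.2 and 64.2, Nab2, a cofactor of Egr2, at 21.5 and 53.6, and Sox9 at 14.0 and 33.4. Sox8 and Sox9 were also higher at P7 in mesenchyme-like cells, at 8.11 and 36.5 and at 90.0 and 243, which is above their glial levels, and Nab2 was at 14.5 and 25.95 there. Among the lower genes the 5 furthest from 1 were Egr1, Jun and Egr3, which are immediate early genes, Adam10, a protease of membrane proteins, at 101 and 33.6, and the sodium channel gene Scn7a at 143 and 56.0. Adam10 was lower at P7 outside the glia as well, at 36.3 and 15.9 in mesenchyme-like and 219 and 99.3 in endothelial-like cells. The other 2 were Adam23 and Tfap2a. Of the 11 genes of the ErbB relay and the 10 that restrain ErbB signals, 0 passed 2-fold with 5 CPM added, a share near that of all genes. With nothing added, some of these low genes did pass 2-fold. Higher at P7 were Spry1 at 6.76 and 17.4, Rnf41 at 9.41 and 23.2 and Errfi1 at 4.96 and 10.4. Lower at P7 were Spred1 at 19.2 and 7.44, Lrig2 at 8.55 and 3.32 and Gab1 at 9.58 and 2.74.

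**Figure D4:**
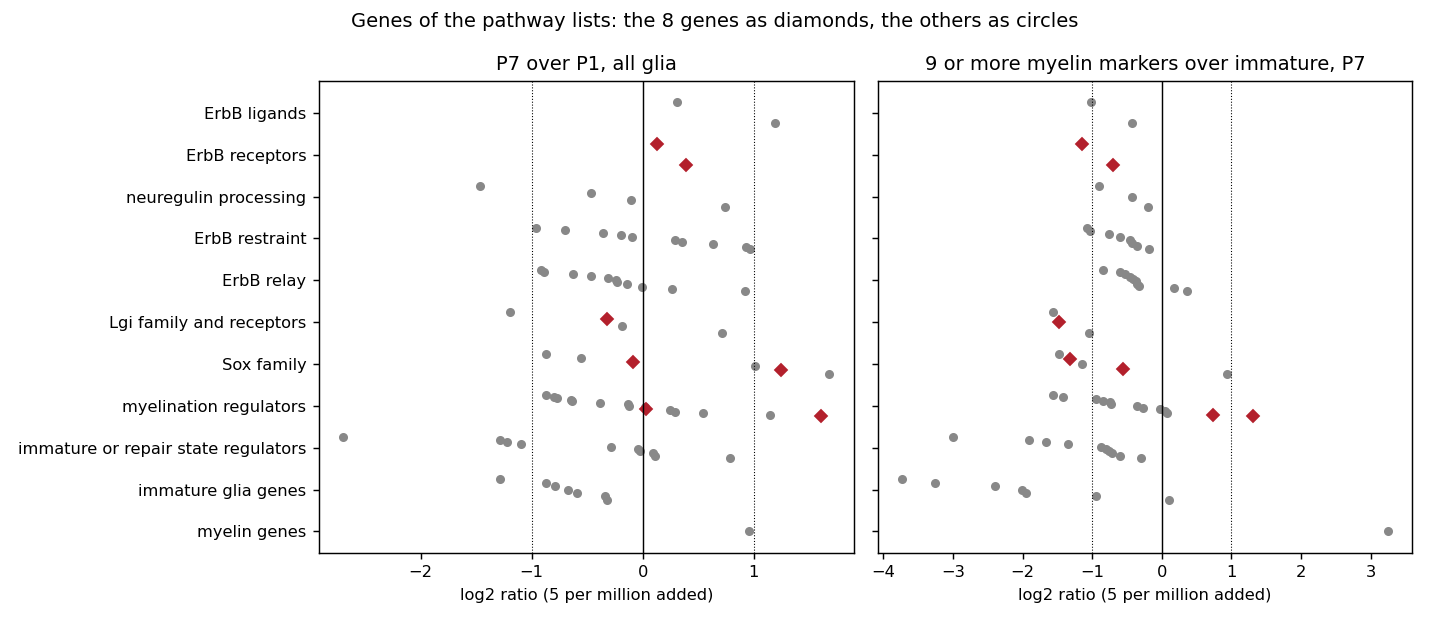
Log2 ratios, with 5 CPM added, of the pathway genes that could be compared, by list, for P7 over P1 in all glia-like cells (left) and for cells with at least 9 myelin markers over immature cells at P7 (right), with dotted lines at 2-fold and diamonds for members of the set of 8. On the left 6 genes lie beyond the upper and 7 beyond the lower line, and on the right 2 lie beyond the upper and 21 beyond the lower one.

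In the cells with at least 9 myelin markers at P7, 64 pathway genes could be compared with the immature cells, and 2 were at least 2-fold higher and 21 lower, where 2.55% and 9.4% of all genes were, with a median log2 ratio of -0.72 beside -0.33 over all genes. The higher genes were Egr2 and Pmp22, the myelin gene of the lists. The lower genes furthest from 1 were Gap43, a growth cone protein, at 23.6 against 375, Scn7a at 3.54 against 76.9, the endothelin receptor gene Ednrb at 117 against 971, the cadherin gene Cdh2 at 4.13 against 43.2 and the adhesion gene Ncam1 at 20.6 against 98.5. Gap43, Scn7a, Cdh2 and Ncam1 are in the lists as genes of immature glia, not as parts of the signal. The part of such genes in these counts was not tested. Of the Lgi list, Lgi1, Lgi4 and Adam23, the 3 that could be compared, were all 2-fold lower.

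The genes whose levels most resembled those of each member were found by Pearson's r of log2 levels over 18 points, the classes in both libraries. These points share libraries and, through free RNA, part of their counts, so the values are descriptions. Those of Sox2 were Ttyh1 (0.990), which is one of the glial gate markers, Plekhb1 and Cmtm5. Those of Sox10 were Plekhb1 (0.979), Celsr2 and Psph, those of Erbb3 were Dbi (0.974), Atp10b and Plekha4, and those of Lgi4 were Grin2b (0.983), Gas2l3 and Col5a3. Pou3f1 was most like Adam17 (0.966), a neuregulin protease, Trappc3 and Cuedc2. Nrg1 was most like Tmem179 (0.990), Tmem178b and Elmod1. The likeness was lower for Erbb2, with Papss1 (0.944), Zfp219 and Arhgef40, and for Egr2, with Adamts3 (0.909), a locus without a gene name and Gas7.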

How the data were processed

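The authors aligned reads from the 10x 3′ kit to the rat genome rn6 with Cell Ranger 3.1.0 and deposited, without normalization, the UMI counts per gene and barcode, which Cell Ranger had called as cells. The submitters' processing notes also name Seurat 3.1.1. The limits of the Methods were applied to these deposited counts, so that a cell had over 500 and under 5000 genes, a minimum of 500 UMIs and a mitochondrial share below 25%. Before these limits the libraries held 114285848 UMIs at P1 and 101264868 at P7, so intervals are narrow for genes with many UMIs and wide for Nrg1.

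Cells were gated by detected markers, at least 3 and at least 1 in every 3 of a list, and took the class with the largest share. The members, the lists and the gates were chosen with earlier results of these data known, and the rule for cells that reached several lists was settled after the distribution of markers had been seen. Levels (CPM) are sums of UMIs over the cells of a group, scaled to 1000000. Ratios were called at 2-fold with a pseudocount of 5 CPM and at least 50 UMIs in the higher group, and folds in the text have no pseudocount. Shares of cells were taken after thinning to 2000 UMIs. A count of 0 was drawn at 3 counts. Genes named beyond the 8 members are the 5 pathway genes of largest ratio in each direction, the 3 genes most correlated with each member, and genes that a result turns on, such as Egfr, Erbb4 and Adam22, which were picked after their values had been seen.

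Scrublet, as run by scanpy 1.11.5, marked doublets (622 cells at P1, 4.87%, and 775 at P7, 6.16%) that were removed in an alternative only. The scripts ran on Python 3.11.15, pandas 2.3.3, scipy 1.17.1, numpy 2.4.6 and matplotlib 3.10.9 and were tested on simulated data. Alternatives were 1 marker fewer or more, clusters in place of gates, cells of 1 class only, doublets removed, a mitochondrial limit of 10%, all barcodes, another scaling, thinning, other pseudocounts and equal weight per cell. After seeing the data, glia without 8 or more mesenchyme markers, myelinating cells from 9 markers, and other cells restricted to named classes were added. The authors' clusters were not used here. Some genes of the lists are not reported here.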

Additional observations from a re-analysis of the deposited data

How the results depend on the processing

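No paired analysis was possible because each age has 1 library and the result comes from no test. With 1 library per age, no alternative replaces a replicate. Between myelinating and immature cells, the number of the 8 genes past 2-fold was 1 at each age. At P7 it was 0 with 1 marker fewer, 0 with each cell weighing the same, 2 with clusters in place of the gate (Sox2 and Lgi4, both lower) and 4 from 9 myelin markers (Egr2 higher, and Sox2, Erbb2 and Lgi4 lower). At P1 it was 3 with clusters (Pou3f1 higher, Sox2 and Lgi4 lower), 4 from 9 markers, which leaves 15 cells, and 0 after thinning, where fewer genes reach 50 UMIs. Between dividing and immature cells at P1 it was 0 and became 1 after thinning, with Egr2 lower (log2 ratio -1.28). The causes of the other changes were not tested. With no pseudocount, 22 pathway genes passed 2-fold between the ages in place of 13. The counts of the age comparison and of glia-like against other cells stayed within 1.5 times, and no direction of a called value turned. Depth limits Nrg1, Erbb2 and the 15 P1 cells with 9 or more markers. Shares of glia-like cells with a UMI before thinning were, at P1, 51.0% for Sox10, 74.6% for Sox2, 31.3% for Egr2, 28.0% for Pou3f1, 11.7% for Erbb2, 60.7% for Erbb3, 1.08% for Nrg1 and 69.3% for Lgi4, and at P7, 81.1%, 73.6%, 33.4%, 48.8%, 16.7%, 65.9%, 0.0878% and 64.6% in the same order.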

Other observations

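In cells that no list claimed, Sox10, Sox2, Egr2, Pou3f1, Erbb3 and Lgi4 stood between glial and mesenchymal levels at both ages. Sox10 was at 60.6 CPM in the 561 such cells of P1 and 210 in the 455 of P7, Pou3f1 at 51.3 and 262, and Lgi4 at 107 and 125. These cells had median UMIs of 3380 at P1 and 1626 at P7, against 5001 and 5261 in glia-like cells.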
